A study of Homo sapiens with 15 samples.

Results

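The comparison is between the high and the low dose of airborne fine particulate matter (FPM) in differentiating human embryonic stem cells. It uses 6 of the 15 RNA-seq libraries of the study: 3 cultures labelled FPM IC50, exposed at 1.4 µg/mL, against 3 labelled FPM IC25, exposed at 0.00062 µg/mL, a dose ratio of 2258. All 6 are wild-type H9, an established human embryonic stem cell line, so every library comes from a single cell line. The cells were cultured in serum medium without directing factors up to day 5, and from then on with ascorbic acid, β-glycerophosphate and vitamin D3, an osteogenic supplement that every group received. FPM was present from day 0, and RNA was taken on day 7. The labels base both doses on protein and name them by inhibitory level, 25% and 50%. Of the 60675 genes listed, 16660 reached 1 CPM (a gene's count relative to its library's total, per M counts) in at least 3 of the 6 libraries and were tested. The other libraries used here as background are 3 vehicle controls (UNT, DMSO at 0.1%) and 6 exposed to a NIST standard reference material (SRM), 3 at 0.003 µg/mL (SRM IC25) and 3 at 5.9 µg/mL (SRM IC50). Whether replicates were grown separately is not in the labels, so p-values cover the variation among these libraries alone, part of which may be technical.

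Embryonic stem cells left to differentiate in serum form mixed cultures that can hold neuroectoderm, neural crest, mesenchyme and extraembryonic-like cells. The neural crest arises at the border of the neural plate, leaves it through an epithelial-to-mesenchymal transition and gives rise to peripheral neurons, pigment cells and the bone and cartilage of the face, while the eye field of the anterior neural plate gives rise to retina and retinal pigment epithelium. Airborne particles carry polycyclic aromatic compounds that can bind the aryl hydrocarbon receptor (AHR), a transcription factor whose best known target is CYP1A1.

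The IC25 libraries held 9.34 to 58.2 M counts (M, mega) and the IC50 libraries 9.77 to 19.5 M, so that the floor of 3 counts lay between 0.0515 and 0.321 CPM. Replicates correlated at 0.984 to 0.992 (Pearson, log2 CPM, across genes). The first principal component held 32.0% of the variance and did not separate the doses, nor did the second (25.9%). The third (19.7%) did. On it the IC25 libraries were at 22.9, -0.997 and 7.79 and the IC50 libraries at -9.20, -17.2 and -3.33. FPM libraries carried more reads in genes annotated as antisense than UNT did (0.282% ± 0.00768, SD, n = 3), at 1.07% ± 0.173 in IC25 and 1.21% ± 0.252 in IC50. The difference of 0.138 percentage points between the doses was within the spread (exact permutation test, two-sided, p = 0.5, smallest possible 0.1), whereas the median log2 fold change of the 1405 tested antisense genes was 0.19 and that of the 3570 genes with no gene on the opposite strand within 5 kb was -0.01. The last group is called free of opposite-strand genes below. How the counting used strand is not given in the sources used here, so values of genes whose exons overlap an opposite-strand gene are uncertain.

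The label of osteogenic differentiation was checked first. Of 22 osteoblast lineage genes, 17 passed the filter. RUNX2, the transcription factor that starts the osteoblast lineage, was at 7.01, 8.28 and 6.89 CPM in IC25 and 3.92, 6.62 and 7.47 CPM in IC50. SP7, which acts after RUNX2, stayed at or below 1.11 CPM. IBSP, a bone matrix sialoprotein, reached at most 0.0515 CPM, BGLAP, which encodes osteocalcin, at most 0.546 CPM, and OMD (osteomodulin) was at 0 in all 6 libraries. Collagen gene COL1A1, expressed by osteoblasts and other mesenchymal cells, was at 210 to 310 CPM. SPP1, which encodes osteopontin, a bone matrix protein also made by other cells, was at 273, 285 and 304 CPM in IC25 and 233, 348 and 350 CPM in IC50. The bone genes IBSP, BGLAP and OMD were thus at or near the detection limit at both doses, while SPP1 and COL1A1 were not. Immune cell markers were nearly absent too, with 1 of 10 past the filter.

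Few genes separated the doses. No gene passed an adjusted p of 0.05 (0% of those tested) when the 3 libraries of each dose were compared as unpaired groups in edgeR. The smallest adjusted p was 0.107, and 638 genes (3.83%) had an unadjusted p under 0.05. DESeq2 on the same libraries called 36 genes (0.216%), 14 higher and 22 lower at IC50. The labels do not say what libraries of the same replicate number share. In these counts they deviated together, so the number was also fitted as a block. The pairing thus rests on the same counts that were tested, and the calls with the block depend on it. With this replicate block 152 genes passed, 66 higher (0.396%) and 86 lower (0.516%) at IC50, among them all 36 of the DESeq2 calls. The number depended on the libraries: 347 passed without both libraries numbered 1 and 56 without those numbered 2, of which 122 and 44 were among the 152. Of the 152, 36 passed in all 3 fits that left out the libraries of 1 number. The values of 125 of the 152 did not overlap between the doses in the unpaired CPM, against 1379 (8.28%) of all genes tested. The 152 were called on these same values, so this is no separate support. Most differences were small: 15501 genes had a 95% interval lying wholly within a 2-fold change in either direction, 1159 had an interval reaching past it, and 29 of the genes called with the block exceeded 2-fold. In the sentences that follow, log2 fold changes are IC50 against IC25 from the unpaired fit with their SE, CPM values are scaled over the 6 libraries, and each library is given in the order of replicate 1, 2 and 3. A gene is said to pass only with the block, and the adjusted p quoted is then the blocked one. Genes named by the smallest p were picked only among those without overlap, so for them lack of overlap is no added support.

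More neural crest genes passed as lower than as higher at the high dose. Of 22 listed, 21 were tested; 8 passed as lower and 1 as higher, against 0.516% and 0.396% of all genes, and 9 had lower and 4 higher values without overlap, against 4.37% and 3.91% of all genes. The median log2 fold change of the list was -0.22, against 0.00 over all genes. Summed over the list, crest genes made up 1625 to 1799 CPM in the IC25 libraries and 1375 to 1446 CPM in the IC50 libraries. TFAP2B, a transcription factor of the early crest, was at 101, 120 and 93.9 CPM in IC25 and 58.5, 67.3 and 65.9 CPM in IC50. Every IC50 library lay below every IC25 library. Its log2 fold change was -0.71 ± 0.11 (adjusted p = 5.1e-05 with the block, 0.107 without). The gene lies on chromosome 6 (GRCh38, 50818723 to 50847613, plus strand) and is free of opposite-strand genes. EDNRA, the endothelin receptor that patterns crest cells of the lower jaw, was at 168, 192 and 163 CPM in IC25 and at 120, 115 and 94.3 CPM in IC50, again without overlap (-0.67 ± 0.11, adjusted p = 5.1e-05 with the block, 0.107 without). It lies on chromosome 4 (147480917 to 147544954).

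Other crest genes that passed as lower had smaller differences. Among them were TWIST1 (-0.58 ± 0.11), MSX1 (-0.49 ± 0.10), ETS1 (-0.44 ± 0.10), PAX3 (-0.37 ± 0.12) and FOXD3 (-0.36 ± 0.10), with blocked adjusted p from 0.00042 to 0.048. FOXD3 and PAX3 did not pass without replicate 2 (adjusted p = 0.74 and 0.32 with the block) or without replicate 3 (0.055 and 0.086). SOX10, which marks migrating crest and glia, was at 51.5, 68.8 and 47.7 CPM in IC25 and 46.8, 32.9 and 34.8 CPM in IC50. These groups did not overlap, but the gene did not pass (adjusted p = 0.30 with the block). The crest list also holds genes of pigment cells, and these lay on the other side. DCT, a melanin synthesis enzyme, was at 0.743, 0.431 and 1.58 CPM in IC25 and 3.72, 2.72 and 3.04 CPM in IC50, and was the 1 crest list gene that passed as higher (1.55 ± 0.38, adjusted p = 0.010 with the block, 0.057 without replicate 2). MITF, the master regulator of pigment cells, was at 5.84, 5.46 and 6.35 against 8.85, 8.88 and 8.58 CPM and did not pass (0.57 ± 0.15, adjusted p = 0.071). Retinal pigment epithelium expresses DCT and MITF as well. Tyrosinase (TYR) did not pass the filter, with at most 0.154 CPM. TYRP1, another melanin synthesis gene, is on no list and was singled out after its values were seen; it was at 1.38, 0.957 and 2.56 CPM in IC25 and 5.23, 4.06 and 3.60 CPM in IC50 (1.25 ± 0.33, adjusted p = 0.0287 with the block, 0.078 without replicate 1 and 0.23 without replicate 2).

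**Figure D1:**
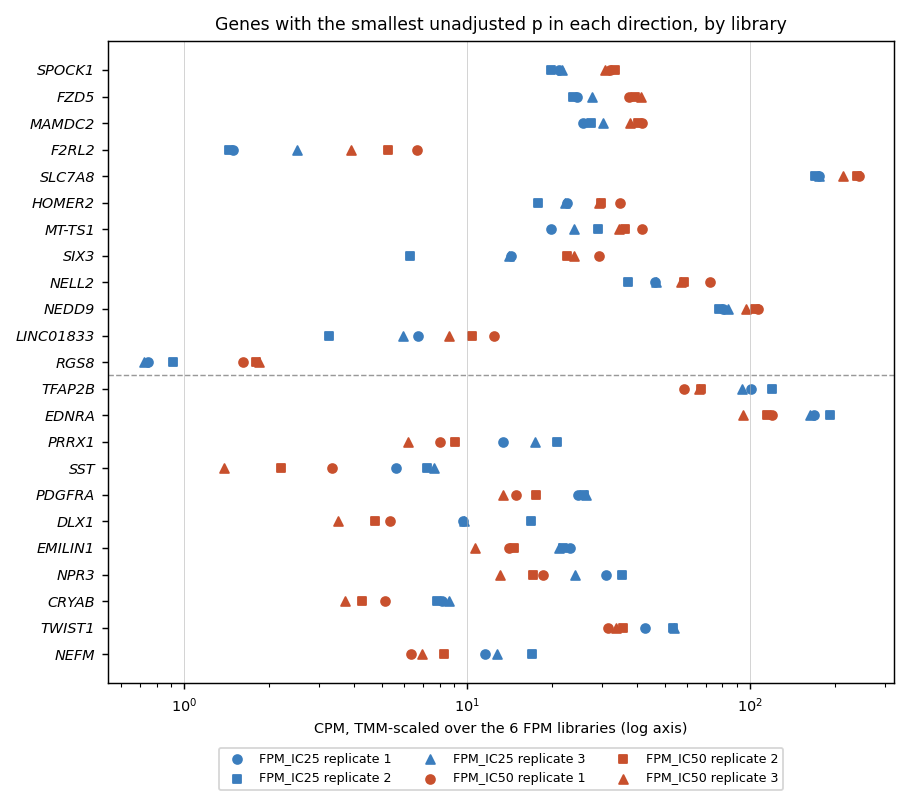
CPM of each of the 6 FPM libraries (log axis) for the genes with the smallest unadjusted p, 12 higher (above the dashed line) and 11 lower at IC50; XIST is not drawn. Genes were drawn only if their 3 IC25 and 3 IC50 values did not overlap, and no gene passed the unpaired test.

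Regulators of mesenchymal transition were split. All 16 listed genes were tested, and 6 passed as lower with the block, none as higher (0.516% and 0.396% of all genes). Without overlap, 5 were lower and 2 higher (4.37% and 3.91% of all genes), and the median of the list was -0.07. PRRX1, a homeobox factor of limb and face mesenchyme, was at 13.4, 20.8 and 17.3 CPM in IC25 and 8.05, 9.04 and 6.18 CPM in IC50. The groups did not overlap, and the mean fell from 17.2 ± 3.73 to 7.75 ± 1.45 CPM (SD, n = 3), with a log2 fold change of -1.15 ± 0.18 (adjusted p = 0.00019 with the block, 0.107 without). It lies on chromosome 1 (170662728 to 170739419). PDGFRA, a growth factor receptor of mesenchyme, was at 24.6, 25.8 and 26.3 against 14.9, 17.6 and 13.4 CPM (-0.74 ± 0.12, adjusted p = 0.00074 with the block, 0.107 without). SNAI1, a repressor of E-cadherin, was at 13.5, 14.4 and 13 against 9.76, 8.27 and 5.90 CPM (-0.77 ± 0.17, adjusted p = 0.0051). Both receptors of platelet-derived growth factor were lower, PDGFRB with the smaller difference (-0.26 ± 0.10, adjusted p = 0.045). ZEB2 passed with overlapping groups (-0.29 ± 0.13, adjusted p = 0.042). PDGFRB and ZEB2 did not pass without replicate 2 (adjusted p = 0.24 and 0.43 with the block) or without replicate 3 (0.11 and 0.33). TWIST2 and FOXC2 had every IC50 library above every IC25 library but did not pass, with values of 0.35 and 0.69 on the log2 scale. PRRX1 and DLX1 were the 2 genes called when all 15 libraries were fitted together (adjusted p = 0.045 for both).

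DLX1, a homeobox gene of forebrain and branchial arches, was at 9.66, 16.9 and 9.75 CPM in IC25 and 5.33, 4.72 and 3.5 CPM in IC50 (-1.42 ± 0.25, adjusted p = 0.00026 with the block, 0.177 without). Its neighbour DLX2, chosen after its values were seen, had values of 15.1, 17.7 and 14.4 against 9.45, 10.8 and 10.1 CPM (-0.62 ± 0.13, adjusted p = 0.0090 with the block, 0.14 without replicate 2). NPR3, a clearance receptor for natriuretic peptides, was at 31.1, 35.4 and 24.2 against 18.6, 17.0 and 13.1 CPM (-0.88 ± 0.16). EMILIN1, an elastic fibre protein, was at 23.1, 21.8 and 21.2 against 14.1, 14.7 and 10.7 CPM (-0.73 ± 0.13). The small heat shock protein gene CRYAB was at 8.17, 7.85 and 8.63 against 5.13, 4.26 and 3.69 CPM (-0.92 ± 0.17). Lack of overlap between doses was a condition for naming these last 3 genes, and each passed with the block (adjusted p = 5.5e-05, 0.0010 and 0.0062). XIST, the RNA of X chromosome inactivation, had a log2 fold change of -1.30 ± 0.17 (adjusted p = 0.00026 with the block, 0.107 without) and overlaps exons of an opposite-strand gene.

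Neuron genes had the lowest median of the lists described here. Of 20 listed genes 17 were tested, the median was -0.47, 5 passed as lower with the block and none as higher (0.516% and 0.396% of all genes), and 8 had lower and 0 higher values without overlap (4.37% and 3.91% of all genes). None of the 5 passed without replicate 2, with blocked adjusted p of 0.13 (NEUROD1), 0.22 (NEUROD4), 0.069 (NHLH1), 0.21 (ELAVL4) and 0.32 (POU4F1). The summed level of the 17 tested genes overlapped between the doses, at 263 to 284 CPM in IC25 and 231 to 304 CPM in IC50. On the log2 scale 13 of the 17 lay below 0 and 4 above, the highest at 0.34. The list genes named below are all on the lower side. NEUROD1, a proneural factor, was at 2.87, 2.97 and 2.26 CPM in IC25 and 1.21, 1.18 and 0.830 CPM in IC50 (-1.28 ± 0.27, adjusted p = 0.016). NEUROD4 and NHLH1, factors of newly formed neurons, had log2 fold changes of -1.21 ± 0.25 and -1.12 ± 0.24. ELAVL4, a neuronal RNA-binding protein, was at 3.18, 3.78 and 2.05 against 1.31, 1.23 and 0.922 CPM (-1.32 ± 0.32, adjusted p = 0.010). POU4F1, a sensory neuron factor, was the fifth (-0.81 ± 0.26, adjusted p = 0.040). GAP43, a protein of growing axons, did not pass (-0.40 ± 0.13, adjusted p = 0.059). Among genes named by the smallest p, SST, which encodes the peptide somatostatin, was at 5.63, 7.23 and 7.66 against 3.32, 2.21 and 1.38 CPM (-1.61 ± 0.26, adjusted p = 0.0012 with the block). NEFM, a neurofilament subunit, was at 11.6, 16.9 and 12.8 against 6.34, 8.27 and 6.92 CPM (-0.93 ± 0.18, adjusted p = 0.00054). In bulk RNA, fewer cells of a type and less RNA per cell cannot be told apart, and the part of crest, neuron and eye field cells in the other differences was not tested.

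In the eye field list more genes passed as higher than as lower. Of 22 listed, 21 were tested, the median was 0.28, 4 passed as higher and 1 as lower with the block (0.396% and 0.516% of all genes), and 7 had higher and 1 lower values without overlap (3.91% and 4.37%). Of the 5, LHX2 alone passed with each replicate number left out; SIX3 and SIX6 did not pass without replicate 1 (adjusted p = 0.13 and 0.17 with the block), and ZIC1 did not without replicate 2 (0.54). Their summed level was 1167 to 1348 CPM in IC25 and 1242 to 1617 CPM in IC50. SIX3, a homeobox factor that sets up the eye field, was at 14.3, 6.27 and 14.1 CPM in IC25 and 29.2, 22.5 and 23.9 CPM in IC50 (1.12 ± 0.24, adjusted p = 0.0090 with the block, 0.295 without). It lies on chromosome 2 (44941898 to 44946077), and LINC01833, a long noncoding RNA, was at 6.69, 3.26 and 5.93 against 12.5, 10.4 and 8.67 CPM (1.01 ± 0.24, adjusted p = 0.010 with the block, 0.11 without replicate 2). LHX2, needed for the optic vesicle, was at 13.9, 6.32 and 12.8 against 29.5, 17.3 and 19.9 CPM (1.01 ± 0.26, adjusted p = 0.00054). SIX6 was at 5.63, 1.77 and 6.66 against 14, 9.04 and 11.3 CPM (1.24 ± 0.35). In SIX3, LHX2 and SIX6 the second IC25 library was the lowest of the 6, and the other IC25 libraries also stayed below all IC50 libraries.

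RAX, the earliest eye field factor, had the largest fold of the list and did not pass. Its values were 20.1, 6.13 and 19.5 CPM in IC25 and 57.2, 31.3 and 35.3 CPM in IC50 (1.43 ± 0.37, adjusted p = 0.40 with the block). PAX6 was at 89.3, 43.7 and 84.9 against 174, 112 and 114 CPM (0.88 ± 0.24, adjusted p = 0.35 with the block). The groups did not overlap for either gene. The member that passed as lower was ZIC1 (-0.64 ± 0.18, adjusted p = 0.027), a factor of the dorsal neural tube and crest border.

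**Figure D2:**
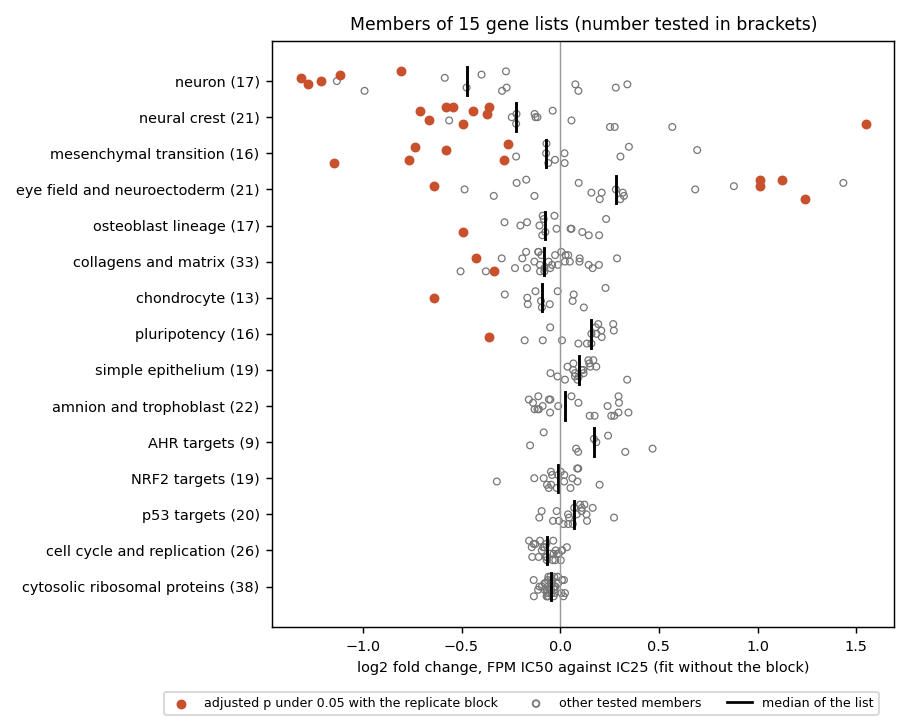
Log2 fold change at IC50 against IC25 for every tested member of 15 gene lists (points), with the list median (black line); filled points passed an adjusted p of 0.05 with the replicate block. Neuron and neural crest members lie mostly below 0, with medians of -0.47 and -0.22, and eye field members mostly above, with a median of 0.28, while stress, cell cycle and ribosomal lists stay near 0.

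Secreted and signalling genes were among those higher at IC50. SPOCK1, an extracellular proteoglycan, was at 21.1, 19.8 and 21.6 CPM in IC25 and 32.0, 33.4 and 30.7 CPM in IC50 (0.62 ± 0.10, adjusted p = 0.00083 with the block, 0.107 without). The spread within each dose was small beside the difference, with means of 20.8 ± 0.957 and 32.0 ± 1.36 CPM (SD, n = 3). SFRP2, a secreted WNT antagonist, was at 321, 208 and 345 against 574, 402 and 440 CPM (0.70 ± 0.18, adjusted p = 0.014 with the block, 0.30 without replicate 1). It was the 1 of 27 tested WNT pathway genes that passed, where 0.396% of all genes passed as higher. The WNT list as a whole had a median of -0.09, with 19 genes below 0. Without overlap, 5 of its genes were lower and 2 higher (4.37% and 3.91% of all genes). FZD5, a WNT receptor of the eye field and not on that list, was at 24.4, 23.6 and 27.7 against 37.4, 39.4 and 41.2 CPM (0.63 ± 0.10, adjusted p = 0.00031 with the block, 0.107 without). DLK1, an imprinted inhibitor of differentiation, was at 44.5, 31.9 and 44.3 against 75.1, 50.9 and 58.8 CPM (0.61 ± 0.16, adjusted p = 0.00037). The chemokine gene CCL2 was at 22.2, 13.9 and 24.1 against 41.5, 27.6 and 30.4 CPM (0.71 ± 0.20, adjusted p = 0.0039). It was the 1 of 19 tested inflammation and interferon genes that passed (0.396% of all genes as higher), and the median of that list was 0.03. Each of these 5 genes had all IC50 libraries above all IC25 libraries, which for all but CCL2 was a condition for being named.

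Further genes with small unadjusted p were NELL2 (0.54 ± 0.12), a secreted protein of neural tissue, the amino acid transporter gene SLC7A8 (0.41 ± 0.08), the scaffold gene NEDD9 (0.35 ± 0.08), HOMER2 (0.58 ± 0.12), MAMDC2 (0.51 ± 0.10) and F2RL2 (1.43 ± 0.28), which encodes a protease-activated receptor. All 6 passed with the block, NEDD9 and F2RL2 not without replicate 2 (adjusted p = 0.13 and 0.071). RGS8 did not, at 0.743, 0.910 and 0.719 against 1.61, 1.80 and 1.84 CPM (adjusted p = 0.083). MT-TS1, a mitochondrial tRNA gene, passed (0.61 ± 0.13, adjusted p = 0.011), but it was at 0.850 CPM in UNT and 23.5 and 36.5 CPM at IC25 and IC50, so that nearly all of its signal was in FPM libraries. BEST1, singled out after its values were seen, is alike: its exons overlap an opposite-strand gene, it was at 1.74 CPM in UNT and 368 and 455 CPM in the FPM groups, and it passed at 0.30 ± 0.15 (adjusted p = 0.0236 with the block, 0.47 without replicate 3). Of the 152 genes that passed with the block, 11 were antisense genes by annotation and 49 were free of opposite-strand genes. Exons of an opposite-strand gene overlap TWIST1, FOXD3, SOX10, ZEB2, LHX2, PAX6, ZIC1, LINC01833, TYRP1, POU4F1, NEFM, CRYAB, MAMDC2, F2RL2, NEDD9, CRABP1, FOXC2, TYMS and MCM7 and the panel genes CYP1B1, POU5F1, NQO1, DDIT3 and CDKN1A, whose values are uncertain for that reason.

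Bone, cartilage and matrix lists held 4 genes that passed, all lower, where 0.516% of all genes passed as lower. Of 17 tested osteoblast lineage genes MSX1 passed, as lower, at 59.7, 56.9 and 62.9 against 45.5, 37.3 and 45.7 CPM, and the median of the list was -0.08. MSX1 is on the crest list too, as TWIST1 is on both the crest and the mesenchymal list. Alkaline phosphatase (ALPL), an early osteogenic enzyme, was at 66.0, 76.2 and 70.0 against 85.5, 77.2 and 72.4 CPM (0.14, 95% interval -0.06 to 0.35). COL1A1 had a value of -0.20 (-0.47 to 0.07) and SPP1 of 0.11 (-0.19 to 0.41). Of 33 tested collagen and matrix genes COL6A3 (-0.43 ± 0.14) and NID1 (-0.33 ± 0.13) passed as lower, NID1 not without replicate 2 or 3 (adjusted p = 0.24 and 0.14 with the block), and of 13 chondrocyte genes COL11A2 did (-0.64 ± 0.14). The vitamin D catabolic enzyme gene CYP24A1 was at 3.61, 4.31 and 4.70 against 2.41, 3.44 and 2.58 CPM, without overlap, and did not pass (-0.58, -1.05 to -0.11, adjusted p = 0.26 with the block). In the retinoid list, the binding proteins CRABP1 (-0.48 ± 0.11) and CRABP2 (-0.26 ± 0.10) passed as lower, but CRABP1 did not without replicate 1 (adjusted p = 0.25) nor CRABP2 without replicate 2 (0.57). In the BMP and TGF-beta list, the ligand BMP5 passed as lower (-0.62 ± 0.16) and the signal transducer SMAD9 as higher (0.49 ± 0.13); without replicate 2 neither passed (adjusted p = 0.27 and 0.37). The imprinted gene PEG3 passed as lower (-0.38 ± 0.11), opposite to DLK1.

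The promoter of CYP1A1 is shown because this gene is the usual readout of AHR activity. The sequence (RefSeq, GRCh38.p14, minus strand, chr15:74725479-74725778) runs from 250 bases before to 50 after the start, and capitals mark the AHR core motif GCGTG, searched on both strands.
CYP1A1: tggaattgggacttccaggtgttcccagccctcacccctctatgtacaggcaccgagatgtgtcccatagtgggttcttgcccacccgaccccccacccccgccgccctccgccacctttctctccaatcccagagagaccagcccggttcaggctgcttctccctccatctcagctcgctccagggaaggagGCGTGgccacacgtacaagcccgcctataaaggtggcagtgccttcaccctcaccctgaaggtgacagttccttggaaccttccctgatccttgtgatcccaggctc
This window holds 1 match, and 36.5% of all 35116 promoters in that table hold it. Of the 12 AHR list genes 10 matched the table, and 7 of these held it in at least 1 promoter. Counted by promoter, as the 36.5% is, 8 of their 14 promoters held it.

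No exposure marker passed. CYP1A1 was at 7.75, 7.95 and 8.28 CPM in IC25 and 5.93, 7.65 and 7.93 CPM in IC50 (-0.15, 95% interval -0.50 to 0.19), and 6.51 CPM in UNT. CYP1B1, another AHR target, was at 25.2, 29.8 and 25.8 against 22.0, 32.8 and 36.6 CPM (0.18, -0.16 to 0.52). None of the 9 tested AHR list genes and none of the 19 tested NRF2 targets passed with the block. The antioxidant genes HMOX1 and NQO1 had values of 0.20 (-0.11 to 0.50) and -0.08 (-0.35 to 0.18). The metallothionein gene MT2A, which responds to metals, was at 6.48, 8.28 and 9.75 against 10.9, 10.1 and 10.6 CPM and did not pass (0.32, -0.04 to 0.67). The stress factors ATF3 and DDIT3 and the p53 target CDKN1A had values of -0.01, 0.05 and 0.11. Lists of the unfolded protein response (22 tested), p53 targets (20), cell cycle (26), ribosomal proteins (38) and nuclear oxidative phosphorylation (31) held no gene that passed, and their medians lay between -0.07 and 0.07. In the cell cycle list 6 of 26 genes had lower values without overlap, against 4.37% of all genes. These were TYMS, AURKB, MCM7, CDC20, MCM6 and AURKA, each lower by at most 0.14 on the log2 scale. Log2 fold changes lay below 0 in 22 of the 26, against 8262 of all 16660 genes. This was not particular to the cell cycle list. Values lay below 0 in 33 of 38 ribosomal protein and 27 of 31 oxidative phosphorylation genes too. In the unfolded protein response and p53 lists they did in 12 of 22 and 5 of 20.

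Pluripotency and extraembryonic genes gave 1 call between them. Of 16 tested pluripotency genes FOXD3, also a crest gene, passed as lower (0.516% of all genes did), and the median was 0.16. POU5F1 was at 141, 170 and 182 against 154, 191 and 205 CPM (0.16, 95% interval -0.11 to 0.42), NANOG at 0.19 (-0.24 to 0.63) and SOX2 at 0.16 (-0.09 to 0.40) on the log2 scale. All 22 amnion and trophoblast genes were tested, none passed, and the median was 0.02. CGA, the shared subunit of glycoprotein hormones and a syncytiotrophoblast product, was at 70.8, 50.5 and 67.3 against 57.2, 61.4 and 109 CPM (0.27, -0.19 to 0.73). HAND1 was at 237, 254 and 269 against 164, 236 and 301 CPM (-0.12, -0.48 to 0.25). In the simple epithelium list 17 of 19 genes had values above 0, with a median of 0.09 and no gene that passed.

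The vehicle controls set these differences in a longer series, on CPM scaled over all 15 libraries. TFAP2B was at 71.6 CPM in UNT, 102 at IC25 and 62.3 at IC50, and PRRX1 at 10.4, 16.6 and 7.55 CPM. SIX3 was at 26.2, 11.2 and 24.6 CPM, LHX2 at 24.1, 10.7 and 21.7 CPM, and RAX at 40.7, 14.8 and 40.2 CPM. SPOCK1 was at 30.0, 20.2 and 31.2 CPM and DCT at 3.91, 0.886 and 3.08 CPM. In these 7 genes the IC50 mean was the one nearer to the vehicle, although for TFAP2B and PRRX1 every IC50 library also lay below every UNT library. Among the genes named by the smallest p, UNT was nearer to IC50 in 8 of the 12 higher and 6 of the 12 lower. The other lower genes, XIST, SST, DLX1, EMILIN1, CRYAB and NEFM, were nearer to IC25; NEFM was at 13.3 CPM in UNT, 13.3 at IC25 and 6.99 at IC50. Over the 152 genes that passed with the block, UNT was nearer to IC50 on the log scale in 92 (60.5%), against 47.0% of all genes tested. Among those free of opposite-strand genes it was nearer in 36 of 49, against 1823 of 3570 (51.1%). The distances to UNT were not tested here.

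**Figure D3:**
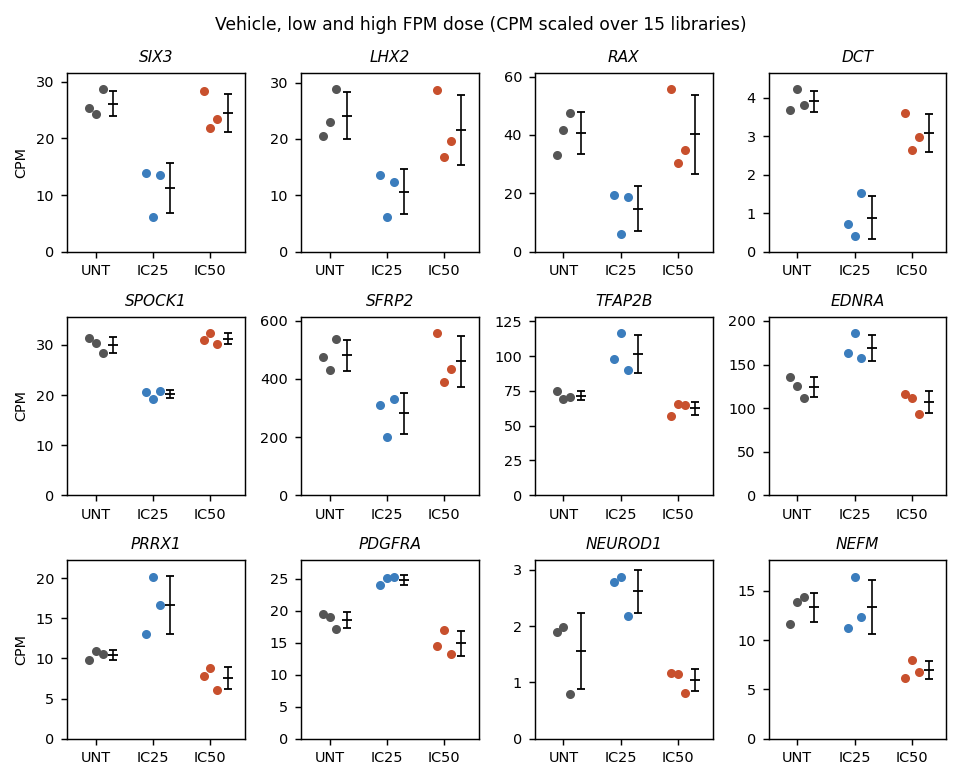
CPM scaled over 15 libraries in vehicle (UNT), low dose (IC25) and high dose (IC50) for 12 genes; points are libraries and bars the mean ± SD (n = 3), with each axis starting at 0. SIX3, LHX2, RAX, DCT, SPOCK1 and SFRP2 dip at IC25, TFAP2B, EDNRA, PRRX1 and PDGFRA peak there, and NEFM is lowest at IC50.

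The high and low dose of SRM, tested in the same way over the 12 exposed libraries, gave far more calls: 2436 genes higher (14.2%) and 2448 lower (14.3%) at its high dose, against 0 for FPM in the same fit, where 658 had an unadjusted p under 0.05. The dose ratios and amounts of the particles differ. The dose difference itself differed between FPM and SRM in 2664 of 17144 genes (15.5%). Amnion and trophoblast genes had a median log2 fold change of -2.75 with SRM dose and 0.02 with FPM dose, and the difference between particles passed in 20 of 22. CGA fell by 5.91 on the log2 scale at the high SRM dose. Pluripotency genes had a median of 1.27 with SRM dose, and CYP1A1 was higher by 1.18. Of the 152 genes that passed with the block for FPM, 55 (36.2%) were also called by SRM dose, which is 1.13% of the SRM calls, and 44 of the 55 had the opposite direction. SRM dose called 28.5% of all genes tested. How often the directions were opposite among all genes called by SRM dose was not counted. The 44 of 55 can thus not be read as particular to these genes.

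**Figure D4:**
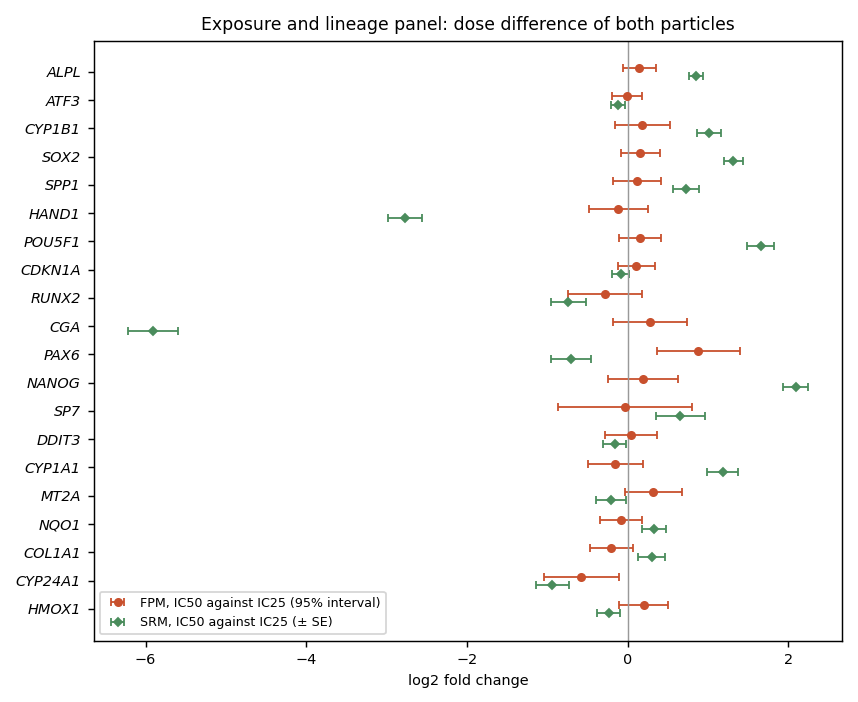
Log2 fold change of the high against the low dose for 20 exposure and lineage genes, for FPM (95% interval) and SRM (± SE). No FPM value passed, with CYP1A1 at -0.15 and CGA at 0.27, whereas with SRM CGA was at -5.91 and NANOG at 2.09.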

How the data were processed

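Counts per gene were deposited as whole-number read counts, unnormalized; the authors, per the submitters' processing notes, used HISAT2 2.2.1, SAMtools 1.10, featureCounts of Subread 2.0.15, FastQC 0.11.7, GRCh38 and DESeq2. The library kit was directional, per the labels' protocols. Not given in the sources used here: annotation release, strand setting and handling of reads with several positions. A deposited table of FPKM values was not used, nor was 1 column of gene lengths. GENCODE release 29 gave coordinates and opposite-strand genes.

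The comparison used edgeR 4.0.16 (R 4.3.3; TMM, robust quasi-likelihood F test, Benjamini-Hochberg adjustment at 0.05 over all genes tested), after keeping genes with at least 1 CPM in 3 libraries. Floors of 3 counts cover counting error only, since reads carry no molecular identifiers. Replicate numbers come from the labels. Deviations from the group mean correlated at 0.288, 0.348 and 0.388 between libraries of the same number and at -0.257 to -0.0702 otherwise. Deviations within a group cancel out, so these values are not independent and are no test of the pairing. The numbers were taken to pair the libraries on this ground alone, and the fit with the replicate number as a block is given beside the results. No 2 replicates were alike within counting noise (lowest chi-square per gene 6.00).

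Named genes are the 12 higher and 12 lower genes, and 6 each way among those free of opposite-strand genes, with the smallest unadjusted p, since none passed, among genes with a mean of at least 1 CPM, no overlap and an approved symbol, and a panel of 20. Since no list gene passed without the block, list genes that passed with it are named too, a choice made after seeing the data; 2 of them are not reported here. Members and the 43 lists were chosen with earlier results of these data known. The code was tested on simulated data. Alternatives were DESeq2 1.42.0, other scalings and filters, all 15 libraries, each library left out, thinned counts, the antisense share as a covariate, GC correction, genes free of opposite-strand genes, and combinations with the block, which were added after seeing the data.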

Additional observations from a re-analysis of the deposited data

Results flagged for a closer look

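The difference between doses was tested against the same difference with SRM in the 12 exposed libraries (interaction term, edgeR). An adjusted p under 0.05 was found in 26 of the 46 named genes apart from XIST, against 15.5% of all genes tested. Genes named by the smallest p were picked on the same FPM libraries that enter this test. The panel genes were chosen with earlier results of these data known. The number of 26 is thus partly built in for both sets and is no separate support. The values below are the log2 dose difference of FPM minus that of SRM. Because SRM gave many more calls, a difference can come from either particle, so both are given for the leading genes.

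Genes of amnion and trophoblast fell with SRM dose and did not pass with FPM dose. CGA stood at 6.18 (FPM 0.27, SRM -5.91) and HAND1 at 2.65 (FPM -0.12, SRM -2.77). All other genes on the positive side had opposite signs in the 2 particles. Of eye field and pigment cells, with 1 long noncoding RNA, these were DCT at 4.08 (FPM 1.55, SRM -2.53), SIX3 at 1.84 (FPM 1.12, SRM -0.72), PAX6 at 1.58 (FPM 0.87, SRM -0.70) and LINC01833 at 1.79. The eye field list as a whole, however, had a median of 0.20 with SRM dose (9 genes called higher and 6 lower) and 0.28 with FPM dose. F2RL2 at 2.02 (SRM -0.60), RGS8 at 1.97 (SRM -0.81), SFRP2 at 1.25 (SRM -0.56), NEDD9 at 0.93 (SRM -0.58) and SLC7A8 at 0.81 (SRM -0.41) completed the positive side. The opposite signs were thus not particular to eye field and pigment genes.

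On the negative side, pluripotency genes were higher with SRM dose: NANOG at -1.90 (FPM 0.19, SRM 2.09), POU5F1 at -1.50 and SOX2 at -1.17. CYP1A1 at -1.34 (FPM -0.16, SRM 1.18), CYP1B1 at -0.84 and ALPL at -0.71 followed. Of the 12 lower genes named by the smallest p in the FPM comparison, 9 were among the 26: SST at -1.75, NEFM at -1.65 (FPM -0.94, SRM 0.71), DLX1 at -1.55, PRRX1 at -1.39 (FPM -1.16, SRM 0.23), NPR3 at -1.11, EDNRA at -0.97, CRYAB at -0.86, EMILIN1 at -0.85 and TWIST1 at -0.77. Their SRM values were between -0.07 (CRYAB) and 0.71 (NEFM), while the other 3 lower genes named by the smallest p, XIST, PDGFRA and TFAP2B, had SRM values of -0.56, -0.29 and -0.21, and their difference between particles did not pass.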

How the results depend on the processing

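The number of genes that passed depended on the test. It was 0 with DESeq2 size factors in edgeR, upper-quartile scaling, filterByExpr, thinned counts, the antisense share as a covariate and GC correction, with 598 to 859 genes at an unadjusted p under 0.05. It was 36 with DESeq2 (9 past 2-fold, 15 on the lists), 91 with no expression filter (34 and 30), 2 with all 15 libraries (2 and 1), 152 with the replicate block (29 and 36) and 9 among genes free of opposite-strand genes (3 and 4), namely SPOCK1 higher and PRRX1, SST, EDNRA, TFAP2B, DLX1, PDGFRA, EMILIN1 and NPR3 lower. Leaving out each library gave 0 to 6 genes, also past 2-fold; the 6 appeared without FPM IC25 replicate 2, and 2 of them were among the 152. With the block and GC correction 102 genes passed (25 and 30), with the block among genes free of opposite-strand genes 39 (10 and 17), with the block on thinned counts 148 (24 and 35) and with the block in DESeq2 57 (14 and 23).

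With the block and without replicate 1, 2 or 3, the counts were 347, 56 and 185 (30, 12 and 43 past 2-fold; 61, 22 and 50 on the lists), and 122, 44 and 97 of these were among the 152. All 152 kept their sign with each library left out, but they were called on these same libraries, so this is no separate support. The block changed 0 calls into 152 and is the pairing result quoted in the report; the cause of these differences between settings was not tested. In the 12-library fit 17144 genes were tested, with 2664 passing for the interaction with SRM and 4884 for SRM dose. Among genes free of opposite-strand genes 3738 were tested, and 819 and 1317 passed. These counts rest on unlike numbers of genes, so the smaller counts do not mean a smaller share. The block gave 3557 and 6036. The antisense difference ranged from -0.0061 to 0.236 percentage points with a library left out.

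Panel genes near 0 changed sign. ATF3 was at 0.0025 with all 15 libraries, 0.059 thinned, 0.058 thinned with the block, and 0.024 with the block without replicate 3, and leaving out single libraries gave -0.031 to 0.024. HAND1 was at 0.019 with the antisense covariate, 0.027 with the block without replicate 1, and -0.34 to 0.089 with a library left out. NQO1 was at 0.023, 0.0023 and -0.19 to 0.049 under the same settings. SPP1 was at -0.00034 with the block without replicate 2. With a library left out CGA ranged from -0.082 to 0.44, SP7 from -0.25 to 0.34 and DDIT3 from -0.074 to 0.16. None of these passed. Total counts limit genes near 1 CPM, where 3 counts were up to 0.321 CPM.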

Other observations

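Genes outside the lists that passed with the replicate block were read after their values were seen and are given as a description. Lower at IC50 were the factors EBF1 (4.03, 4.40 and 4.01 CPM in IC25 against 1.91, 2.41 and 1.84 CPM in IC50) and EBF3 (3.5, 5.5 and 3.61 against 1.91, 2.05 and 1.57 CPM), which act in neurons and mesenchyme. The collagen receptor gene DDR2 was at 16.1, 22.7 and 18.5 against 12.7, 14.1 and 8.49 CPM, and the nuclear receptor gene NR2F1 at 144, 159 and 138 against 113, 95.7 and 77.6 CPM. WNT1, a ligand of the dorsal neural tube, was at 4.67, 6.08 and 3.38 against 2.01, 2.77 and 2.40 CPM. Blocked adjusted p ran from 0.000366 (NR2F1) to 0.0322 (WNT1), and no groups overlapped. Without replicate 2, EBF1, EBF3 and WNT1 did not pass (0.11, 0.18 and 0.48). EBF3 and NR2F1 overlap exons of an opposite-strand gene, which makes their values uncertain.

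Higher at IC50 was MAB21L2, a gene of eye development, at 31.3, 18.1 and 29.3 against 57.1, 35.8 and 33.5 CPM. LHX9 was at 3.29, 1.58 and 2.14 against 5.23, 3.08 and 4.43 CPM with overlapping groups, and CPLX4, a complexin of retinal synapses, at 2.76, 0.718 and 2.44 against 7.44, 3.75 and 5.44 CPM. BHMT, which methylates homocysteine, was at 2.12, 0.574 and 3.30 against 6.94, 5.13 and 6.64 CPM. MAB21L2 and BHMT did not pass without replicate 1 (blocked adjusted p = 0.24 and 0.10) and LHX9 not without replicate 2 (0.18), and MAB21L2 and BHMT overlap exons of an opposite-strand gene. In each of these 4 genes the second IC25 library was the lowest of the 6.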
